A study of Stylosanthes guianensis with 9 samples.

Results

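A set of 183 of the 54199 genes measured in stylo root tips held a high and nearly level RNA share from 24 to 72 h after germination. Members were chosen by their RPKM (a gene's reads scaled by its length and by library size). The lowest RPKM over 8 libraries had to be at least 100, and the highest had to be less than 1.5 times the lowest. These values chose the genes, so their height and their evenness are a description and carry no test. The rule also allowed a cap of 300 genes, which was not reached.

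Stylo (Stylosanthes guianensis) is a tropical pasture legume, and the plants were of the genotype Reyan No. 2. Root tips were taken 24, 48 or 72 h past germination, each as 3 replicates, and the groups differed in time alone as far as the labels tell. The labels give no Al treatment. The paper that cites these data speaks of Al-treated and untreated apexes and of long-read sequencing, whereas the labels name a BGI RNA-Seq kit, so which of its experiments the table belongs to is uncertain, and the libraries were not split by Al. The labels do not say whether replicates were grown separately, so that p-values reflect only the scatter among these libraries, part or all of which can be technical.

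In plants as in other organisms, genes of this kind are often called housekeeping genes. They include genes for ribosomal proteins, translation factors, the cytoskeleton, protein turnover and central metabolism, which most cells use at most times. A root tip holds a root cap, a meristem of dividing cells and a zone of elongating cells, and genes needed in all of them can keep a level RNA share while the mixture of cells changes. Steady genes also serve as internal references in quantitative PCR, for which the study used a gene of elongation factor 1-alpha. The gene IDs of the table have the form of assembled components and come without names or sequences, so it could not be determined which functions the 183 genes have or whether that reference gene is one of them. RPKM is a share of a library, so a level RPKM does not show a level amount of RNA per cell. In bulk tissue, fewer cells of a type and less RNA per cell cannot be told apart.

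Some libraries stood apart. The 72 h replicate 3 nearly repeated replicate 1, and over the 183 genes its RPKM was 0.991 to 1.01 times that of replicate 1. The pair differed by less than the sampling noise (a mean chi-square per gene of 0.0473, where counting error gives about 1 and the other replicate pairs gave at least 43.3). Replicate 3 was therefore left out of the rule, and in means and fits the pair was averaged and counted as 1 sample, which left 3, 3 and 2 samples at 24, 48 and 72 h. Library totals lay between 28453545 and 37783453 reads. The 24 h replicate 1 and the 72 h replicate 2 listed 24907 and 27888 genes at 0, against 8585 to 12163 in the others. One gene outside the set held 7.01% of the reads of 48 h replicate 2 and 8.71% of those of 72 h replicate 2, but 0.686% to 2.44% elsewhere. Because RPKM is a share, reads held by 1 gene lower the values of all others in that library.

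The 183 genes covered a wide range of levels. Their mean RPKM over 8 libraries lay between 108 and 2005, with a median of 184. At least 200 was reached by 77 genes, at least 500 by 27 and at least 1000 by 6. Together they were 0.338% of the genes, yet they held 7.88% to 8.87% of the reads in genes of each library. Each gene was supported by many reads. The library with the fewest held between 1564 and 87178 reads per gene, with a median of 7624.

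Most members had a ratio nearer to the limit of 1.5 than to 1, the value for a fully level gene. The median ratio of the highest to the lowest RPKM was 1.37. The ratio was below 1.1 in 2 genes, below 1.2 in 9, below 1.3 in 44 and below 1.4 in 113, which left 70 genes between 1.4 and 1.5. The member nearest the limit had a ratio of 1.498, with an RPKM of 122 in its lowest and 182 in its highest library, and the first gene beyond it had 1.502, with 219 and 329. In all, 78 abundant genes had a ratio of 1.5 to 1.6. At the lower limit of abundance, the lowest RPKM was 100.2 in the first gene inside and 99.9 in the first gene outside. A total of 63 genes met the limit for evenness with a lowest RPKM of 80 to 100. The set is thus one end of a continuous range, with no gap at either limit.

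**Figure D1:**
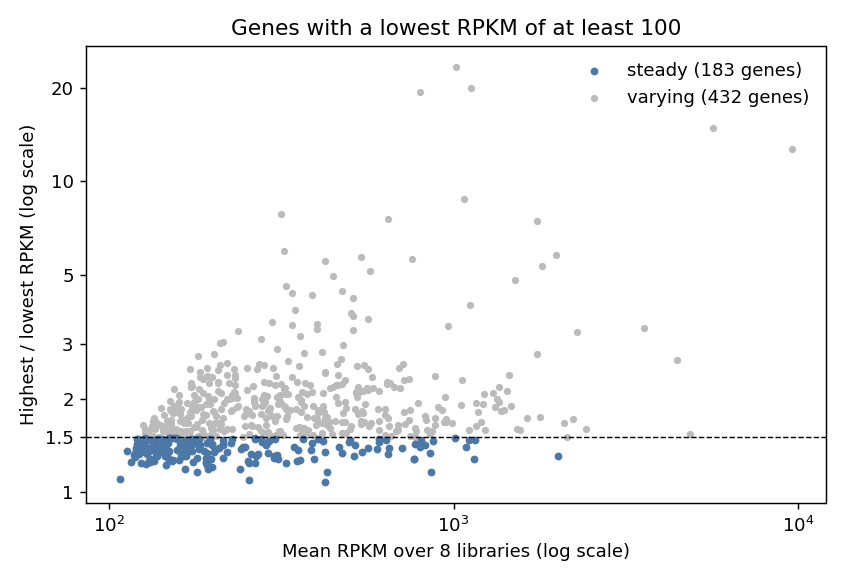
Ratio of the highest to the lowest RPKM (vertical, log scale) against the mean RPKM (horizontal, log scale) over 8 libraries, 1 point per gene, for the 615 genes with a lowest RPKM of at least 100. The 183 steady genes lie below the dashed line at 1.5 and the 432 varying genes at or above it, and points are dense on both sides of the line.

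Among the 615 genes whose lowest RPKM was at least 100, the steady genes were 29.8%. The other 432 genes, called the varying abundant genes here, had a median ratio of 1.86 and reached 23.4. The median level was 184 RPKM in the steady genes and 318 RPKM in the varying abundant genes. Part of this difference comes from the rule, since at a given lowest RPKM a wider ratio goes with a higher mean. The share of genes with a ratio under 1.5 also depended on level. It was 0.458% of the 11564 genes with a mean RPKM of 1 to 5, where 5271 genes were at 0 in at least 1 library. It was 5.59% at 5 to 10, 12.8% at 10 to 20, 20.4% at 20 to 50 and 25.9% at 50 to 100. The share was highest, 27.5%, at 100 to 200, and was 18.1% at 200 to 500 and 17.2% at 500 and above. Evenness was thus most frequent at moderately high levels and less frequent among the most abundant genes.

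The most abundant steady gene was c28191_g2, with a mean of 2005 RPKM. It had 2074, 2074 and 2139 RPKM in replicates 1, 2 and 3 at 24 h. It had 2091, 1988 and 2125 RPKM at 48 h, and 1916 and 1633 RPKM in replicates 1 and 2 at 72 h. Both 72 h libraries lay below all others, and replicate 2 was the lowest. The means were 2096 ± 37.8 at 24 h, 2068 ± 71.7 at 48 h and 1774 ± 199 RPKM at 72 h (SD, n = 3, 3 and 2).

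The most even of the steady genes was c32080_g4, whose highest RPKM was 1.07 times the lowest. It had 419, 434 and 428 RPKM in replicates 1, 2 and 3 at 24 h, 422, 439 and 419 RPKM at 48 h, and 423 and 408 RPKM at 72 h. The 3 times overlapped, apart from 72 h replicate 2, which lay below all other libraries. Its coefficient of variation (CV, the SD as a percent of the mean) was 2.24% over 8 libraries, against 0.708% from counting error alone at a mean of 19967 reads.

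The other IDs were named for the largest differences that the limit of 1.5 left room for, by the fitted change between 72 h and 24 h. The gene c32040_g1 had 118, 121 and 121 RPKM in the 24 h replicates, 145, 131 and 163 RPKM at 48 h, and 174 and 163 RPKM at 72 h. All 72 h and 48 h libraries lay above all 24 h libraries. The gene was higher at 72 h than at 24 h by 0.49 on the log2(RPKM + 1) scale (standard error 0.13).

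The gene c29774_g2 had 119, 127 and 119 RPKM at 24 h, 160, 153 and 159 RPKM at 48 h, and 165 and 168 RPKM at 72 h. Its libraries fell into the order of the times without overlap, with most of the difference between 24 and 48 h. The log2 difference between 72 h and 24 h was 0.45 (standard error 0.12).

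The gene c32034_g2 ran the other way. It had 141, 153 and 150 RPKM at 24 h, 112, 105 and 104 RPKM at 48 h, and 103 and 105 RPKM at 72 h. All 24 h libraries lay above all later ones, while 48 h and 72 h overlapped. The log2 difference between 72 h and 24 h was -0.50 (standard error 0.12).

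The gene c22606_g5, the more abundant of the pair with a negative change, had 879, 904 and 917 RPKM at 24 h, 840, 859 and 831 RPKM at 48 h, and 717 and 646 RPKM at 72 h. The 3 times did not overlap, and the larger step lay between 48 and 72 h. The log2 difference between 72 h and 24 h was -0.40 (standard error 0.13).

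**Figure D2:**
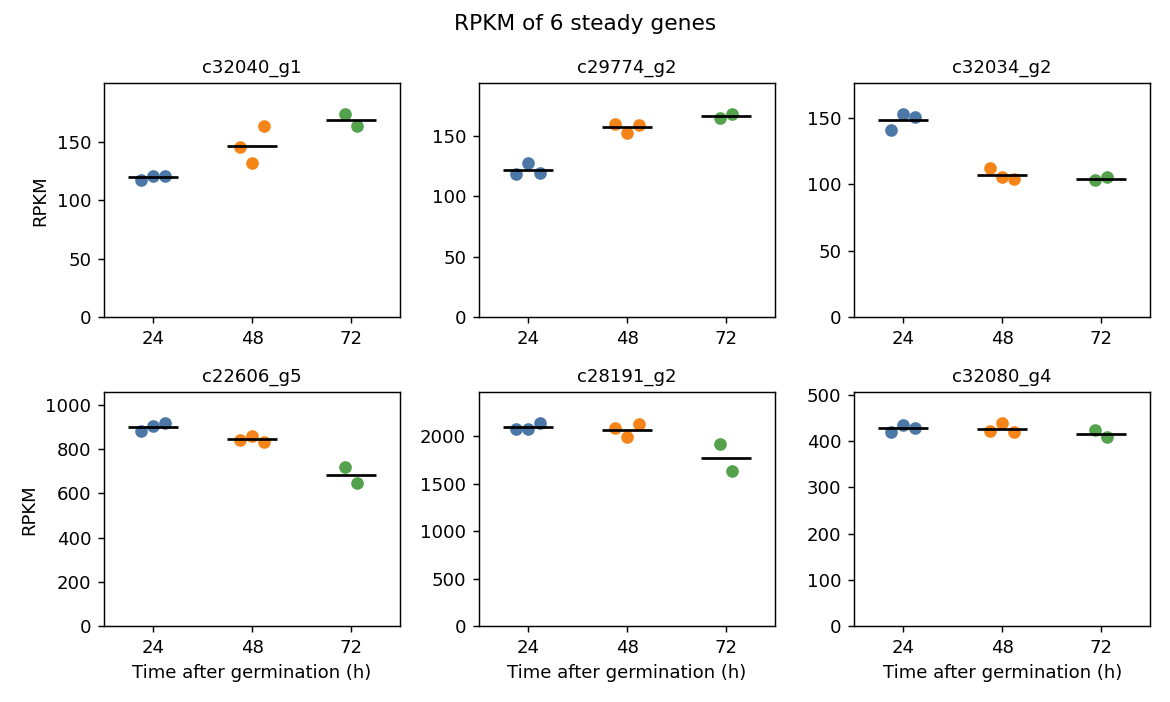
RPKM (vertical axes, starting at 0) of 6 steady genes at 24, 48 and 72 h after germination, 1 point per library and a line at the mean of the points, with 72 h replicate 3 not drawn. The points of c32080_g4 stay between 408 and 439 RPKM, whereas those of c32034_g2 lie at 141 RPKM or more at 24 h and at 112 RPKM or less afterwards.

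The rule bounded the spread that remained. The median CV over 8 libraries was 10.7%, and the reads behind a gene gave a median counting CV of 0.993%. In 179 of the 183 genes the CV was above 5 times the counting CV. Within a time, the SD on the log2 scale had a median of 0.119. The difference between the highest and the lowest time mean had a median of 0.252. In the varying abundant genes the same medians were 0.187 and 0.598. This contrast is no result, since the rule split the lists by their range over the same libraries.

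The 24 h libraries were the low ones for most members. The time mean was lowest at 24 h in 102 genes, at 48 h in 25 and at 72 h in 56. It was highest at 24 h in 34 genes, at 48 h in 87 and at 72 h in 62. Of the 6 possible orders of the times, the most frequent had 48 h highest and 24 h lowest (57 genes), followed by a mean that was lowest at 24 h and highest at 72 h (45 genes). A mean that was highest at 24 h and lowest at 72 h was found in 26 genes. Without 24 h replicate 1 and 72 h replicate 2, left out after seeing the data, 1 sample remained at 72 h and the order of the times changed in part. The mean was then lowest at 24 h in 118 genes, at 48 h in 35 and at 72 h in 30. It was highest at 24 h in 30 genes, at 48 h in 64 and at 72 h in 89, and the most frequent order had 72 h highest and 24 h lowest (67 genes). Low values at 24 h were not particular to the steady genes. Of the 432 varying abundant genes, 180, 25 and 70 had their lowest RPKM in 24 h replicates 1, 2 and 3. Another 130 had it in 72 h replicate 2.

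The libraries themselves were shifted as a whole. Relative to the mean of each gene, the median RPKM of the 183 genes was 0.945, 0.964 and 0.948 in replicates 1, 2 and 3 at 24 h. It was 1.05, 0.992 and 1.07 at 48 h, and 1.05 and 0.948 in replicates 1 and 2 at 72 h. The 24 h replicates lay close together (0.952 ± 0.0105, SD, n = 3), whereas replicate 2 was the lowest at 48 h and lower than replicate 1 at 72 h. These are the libraries in which 1 gene held 7.01% and 8.71% of the reads. With that gene left out of the library totals, the medians were 0.926, 0.958 and 0.925 at 24 h, 1.03, 1.03 and 1.04 at 48 h, and 1.04 and 1.01 at 72 h. The replicates of 48 h and 72 h then lay closer together, and all 24 h libraries lay below all later ones. Another varying abundant gene, by its ID of the same assembled component, stayed in the totals, with a mean of 5655 RPKM and a ratio of 14.8. The cause of the shifts was not tested.

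**Figure D3:**
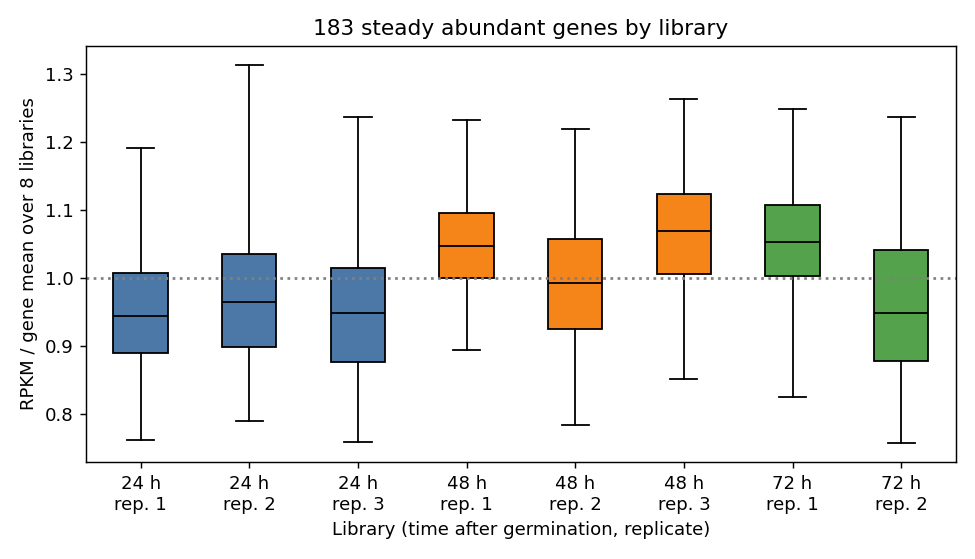
RPKM divided by the mean of each gene over 8 libraries (vertical axis), for the 183 steady genes in each library (horizontal axis, by time and replicate). Boxes span the quartiles with a line at the median, and whiskers reach the lowest and highest gene; the medians are 0.945 to 0.964 at 24 h and reach 1.07 at 48 h.

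Which library set the limits of a gene was uneven too. The lowest RPKM of a steady gene lay in 24 h replicate 3 in 43 genes, in 72 h replicate 2 in 42 and in 24 h replicate 1 in 34. It lay in 48 h replicate 1 in 1 gene and in 48 h replicate 3 in 3 genes. The highest RPKM lay in 48 h replicate 3 in 43 genes and in 72 h replicate 1 in 32. In the varying abundant genes, 24 h replicate 1 held the lowest value of 180 genes and 72 h replicate 2 that of 130. The 72 h replicate 2 also held the highest value of 158 varying genes. Without 72 h replicate 2 the rule gave 303 genes, without 24 h replicate 1 it gave 236, and without both it gave 398. Leaving out any other library gave 186 to 204 genes. The 183 genes are thus those that stayed within the limit also in these 2 libraries.

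**Figure D4:**
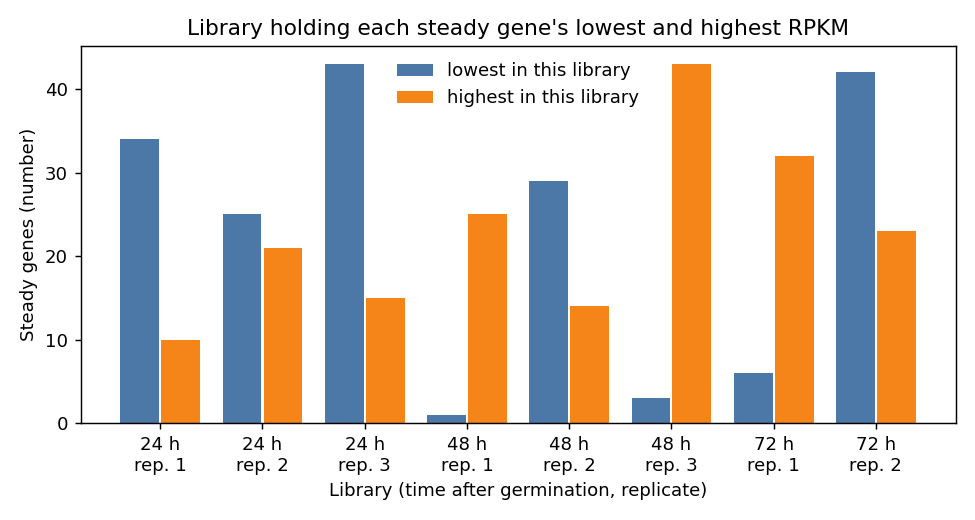
Number of steady genes (vertical axis, 183 in all) with their lowest and their highest RPKM in each of the 8 libraries (horizontal axis). The lowest values are most frequent in 24 h replicate 3 (43 genes) and 72 h replicate 2 (42 genes), and the highest in 48 h replicate 3 (43 genes).

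Scaling decided part of the set. Rescaled to a common median of the genes that reach an RPKM of 1 in every library, with factors from 0.933 to 1.12, the rule gave 167 genes, of which 119 were among the 183. With the most abundant gene left out of the totals it gave 195 genes, of which 155 were among the 183. With quantile normalization it gave 204, of which 156 were shared. Using 72 h replicate 3 in place of replicate 1, or all 9 columns, gave the same 183 genes.

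The members also varied together only in part. Over the 8 libraries, which are shared by all genes, the correlation of log2 RPKM between 2 steady genes had a median of 0.229 over 16653 pairs, with quartiles of -0.175 and 0.565. The first principal component of their log2 RPKM held 43.2% of the variance. It placed the 24 h libraries at 1.51 to 1.65 and the 48 h libraries at -1.60 to -0.658. The 72 h replicate 1 lay at -1.30, near the 48 h libraries, and replicate 2 at 0.240. The second component held 22.4% and had 72 h replicate 2 at its end (2.29), with the others between -0.813 and 0.513.

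In a fit of all 28428 genes tested with limma, few steady genes were called at a Benjamini-Hochberg adjusted p under 0.05. As the rule used the same libraries, the counts are given without a reading. At 48 h against 24 h, 7 of the 183 genes were called, of which 6 were higher and 1 was lower, beside 7.61% of all genes tested (2.08% higher and 5.53% lower). The called genes differed by 0.41 to 0.54 on the log2 scale. At 72 h against 24 h, 4 were called, of which 3 were higher and 1 was lower, beside 13.3% of all genes tested (3.88% higher and 9.42% lower). At 72 h against 48 h, limma called 0 steady genes and 0% of all genes tested. At an unadjusted p under 0.05 there were 13 steady genes, beside 11.1% of all genes tested. With voom on recovered reads 0 steady genes were called, beside 0.0492% of all genes tested. Both comparisons with 24 h use the same 24 h libraries. A fit without 72 h replicate 2 has only 1 sample at 72 h. The count at 48 h against 24 h was 2 without 24 h replicate 1, beside 5.27% of all genes tested, and 0 without 24 h replicate 3, beside 4.81%. It was 0 without 48 h replicate 1, 2 or 3, beside 3.54%, 3.87% and 4.03%, and 14 without 72 h replicate 2, beside 11.1%. The count at 72 h against 24 h was 1, 7 and 0 without 24 h replicates 1, 2 and 3, beside 9.12%, 12.8% and 7.94%. It was 0, 2 and 1 without 48 h replicates 1, 2 and 3, beside 8.69%, 9.62% and 9.45%, and 0 without 72 h replicate 2, beside 5.83%.

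The median log2 difference of the 183 genes was 0.12 at 48 h against 24 h, beside 0.0046 over all genes tested. It was 0.097 at 72 h against 24 h, beside -0.075, and -0.059 at 72 h against 48 h, beside -0.077. The distance to all genes depended on the scaling. Under quantile normalization the median of the 183 genes was 0.10 at 48 h against 24 h, beside 0.084, and 0.12 at 72 h against 24 h, beside 0.10. Under median rescaling the 2 medians were 0.18, beside 0.062, and 0.21, beside 0.012. With the most abundant gene left out of the totals they were 0.14, beside 0.026, and 0.16, beside -0.030. At 48 h against 24 h, 132 of the 183 genes had a difference above 0, and 119 at 72 h against 24 h. Median rescaling gave 154 and 149 such genes, and quantile normalization 126 and 125. The share of all genes tested with a difference above 0 was not counted. The sign of the median at 72 h against 48 h depended on 1 library. That median was 0.024 without 72 h replicate 2, in a fit that left 1 sample at 72 h. The standard error of a difference had a median of 0.12 for the steady genes at 48 h against 24 h, and 0.31 for all genes tested.

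All libraries of 48 h lay above all of 24 h in 62 steady genes, where 12.6% of all genes tested did so. They lay below in 14 steady genes, beside 17.3%. For 72 h against 24 h the numbers were 55 above, beside 18.0%, and 23 below, beside 21.9%. For 72 h against 48 h they were 29 above, beside 15.5%, and 43 below, beside 14.4%. Times could thus be free of overlap in genes whose whole range stayed under 1.5. A lack of overlap was not particular to the steady genes. The share above was 33.9% of steady and 43.5% of varying abundant genes for 48 h against 24 h. It was 30.1% and 56.0% for 72 h against 24 h, and 15.8% and 35.2% for 72 h against 48 h. The shares below were 7.65% and 15.3%, 12.6% and 21.5%, and 23.5% and 18.5% in that order. The next numbers are of steady genes without 24 h replicate 1 and 72 h replicate 2. They were 68 above and 19 below for 48 h against 24 h, beside 15.7% and 23.2% of all genes tested. For the 1 sample left at 72 h they were 125 above and 30 below against 24 h, beside 40.3% and 34.4%, and 60 above and 49 below against 48 h, beside 33.3% and 19.6%.

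Reads were whole at a gene length that could be recovered from the RPKM steps, and this length was not used by the rule except through RPKM itself. The steady genes had a median length of 1551 nucleotides, with a range of 316 to 3410. The varying abundant genes had a median of 1169 nucleotides with a range of 213 to 4454. Lengths are not compared with those of all genes, because for genes with few reads the smallest length that gives whole reads can be a divisor of the true one. The first part of an ID names the assembled component, which can hold several related sequences. A total of 69 of the 183 steady genes (37.7%) were alone in their component, beside 40.0% of the varying abundant genes and 47.7% of all genes. The other 114 shared it with at least 1 more gene. In these components were 460 genes outside the set, of which 22 also had a lowest RPKM of at least 100 and 107 had a mean RPKM below 1. Only 3 components held more than 1 steady gene, 7 steady genes in all. The component with 3 of them had mean levels of 635, 514 and 358 RPKM. Where sequences of a component are near copies, reads may have been split between them, and a level RPKM of 1 gene is then uncertain. This was not tested, since no sequences were at hand.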

How the data were processed

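RNA-seq was done on 9 root tip libraries. The authors deposited RPKM for 54199 genes. Per the submitters' processing notes, reads were counted with HTSeq 0.6.0. Aligner and assembly are not given in the sources used here. The members, lists and tests were chosen with earlier results of these data known.

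Reads were recovered as the smallest gene length, up to 100000 nucleotides, at which the values of all 9 columns were whole (tolerance 1e-08 reads plus 1e-12 of the value). Such a length was found for all 54199 genes. For genes with few reads it can be a divisor of the true length, down to 5 nucleotides here, and their reads are then too low as well. Comparisons of times used limma (version 3.58.1, R version 4.3.3) on log2(RPKM + 1), which understates changes of low genes. The fit had an intensity trend and left out a replicate block. At least 3 columns with an RPKM of 1 or more were required, which left 28428 genes, and p-values were adjusted over all of them. The IDs named were the 2 highest and 2 lowest steady genes by the fitted change between 72 h and 24 h, the most abundant one and the most even one. The gene lists planned for matching by name were not used, since IDs come without names. The rule was repeated under 20 alternatives and each fit under 23, among which the fit without 72 h replicate 3 is counted more than once. Python 3.11.15, pandas 2.3.3, numpy 2.4.6 and matplotlib 3.10.9 were used for tables and figures.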

Additional observations from a re-analysis of the deposited data

How the results depend on the processing

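The rule gave 183 genes. A floor of 50 RPKM gave 433 and of 200 gave 67, and a limit of 1.4 gave 113 and of 2 gave 454. Without both 24 h replicate 1 and 72 h replicate 2 it gave 398. Leaving out 1 library gave 186 to 303, with the highest number without 72 h replicate 2. The other alternatives gave 167 to 218.

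Limma called 7, 4 and 0 steady genes at 48 h and 72 h against 24 h and at 72 h against 48 h. The last count was 0 under every alternative run, where at most 0.137% of all genes tested were called. A pseudocount of 0.1 gave 4 at 48 h. No filter gave 1 and 0, a filter at an RPKM of 5 gave 11 and 9, and median rescaling gave 14 and 11. Over all genes tested these fits called 5.52% at 48 h for the pseudocount, 3.08% and 5.06%, 10.9% and 19.7%, and 8.15% and 14.9%. Only the 2 times compared gave 14 and 0 (of all genes 11.1% and 5.62%), no intensity trend 0 and 0 (6.27% and 10.1%), all 9 columns 12 and 17 (9.23% and 18.4%), and voom 12 and 8 (7.80% and 10.8%). Quantile normalization gave 8 at 72 h (15.4%). Leaving out 1 library gave 0 to 14 and 0 to 7, and 0 in the third comparison. Chosen after seeing the data, the most abundant gene left out of the totals gave 13 and 11 (8.02% and 14.4%), and both doubtful libraries left out gave 0 at 72 h (7.32%). The cause was not tested.

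The median log2 changes were 0.12, 0.097 and -0.059. Median rescaling gave 0.18 and 0.21 against 24 h, beside 0.062 and 0.012 over all genes tested. Both doubtful libraries left out gave 0.024 at 72 h against 48 h. Leaving out 1 library gave 0.088 to 0.16, 0.092 to 0.17 and -0.090 to 0.024. Quantile normalization moved the median of all genes at 72 h against 24 h to 0.10, beside -0.075 as deposited, and there the median of the steady genes was 0.12.

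Same-numbered samples deviated together only in part (correlations -0.049 to 0.22, other pairs -0.25 to 0.14), and not every sample correlated best with its own number. Between 24 h and 48 h, same-numbered replicates 1, 2 and 3 correlated at 0.00017, 0.22 and 0.16. The 2 samples at 72 h deviate from their mean as mirror images, so this check cannot decide whether the numbers pair samples. The replicate block gave 6, 5 and 0 called steady genes, beside 7.80%, 13.2% and 0% of all genes tested. The medians of the steady genes were then 0.12, 0.11 and -0.041, beside 0.0046, -0.032 and -0.041 over all genes tested. With the shared 72 h library as replicate 3 the block gave 7, 4 and 0, beside 9.14%, 13.4% and 0.0387%.

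The IDs c32040_g1, c29774_g2, c32034_g2 and c22606_g5 were picked as extremes of the fitted change, which nearly fixes its sign. The first 3 were called in the fit reported and in 13, 13 and 15 of 23 alternatives. The last was not called there (limma adjusted p = 0.065) and was called in 4 of 23. With 1 gene above 8% of a library, RPKM limits how far an even share can be read as an even level.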
